A study of Mus musculus with 4 samples.

Results

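Genes for the nuclear-encoded subunits of the respiratory chain and ATP synthase were followed in the hypothalamus of mice that carried increasing numbers of C26 tumour cells. The 83 members were taken by symbol from the 19938 genes of the array table that are named by 1 symbol per probe set, with the probe set of highest mean standing for each gene. They comprised 35 symbols of complex I, 4 of complex II, 9 of complex III, 17 of complex IV and 17 of complex V, and the gene for cytochrome c. A further 6 probe sets list a subunit symbol together with another gene and were not used. Any nuclear-encoded subunit outside the 83 was not analysed here.

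Oxidative phosphorylation is the process by which mitochondria turn the energy of NADH and succinate into ATP. Complexes I and II pass electrons to ubiquinone, complex III passes them to cytochrome c, and complex IV gives them to oxygen. Complexes I, III and IV pump protons across the inner membrane, and complex V, the ATP synthase, makes ATP as the protons flow back. Neurons draw most of their ATP from this chain. Most of its subunits are encoded in the nucleus and a few in mitochondrial DNA.

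The study asked how hypothalamic transcripts differ in a mouse model of cancer cachexia as the tumour inoculum increases. All animals were males of 10 to 11 weeks from a cross of BALB/c with DBA/2 mice (CDF1), and all were killed on day 20. Controls received a sham injection of 0.2 ml of buffered saline, and tumour-bearing mice received 500000, 1000000 or 2000000 cells of the C26 colon adenocarcinoma line in the same volume under the skin of the flank (0.5M, 1M and 2M). RNA came from 4 mice for the control array, 4 for 0.5M, 3 for 1M and a single mouse for 2M, whose title nonetheless calls the RNA pooled, so each group was 1 array of pooled RNA, or of 1 animal, without a replicate.

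The 4 arrays correlated at 0.984 to 0.994 across probe sets and had medians of 6.72 to 6.77 log2. Genes that mark hypothalamic neurons differed widely in level. Pmch, melanin-concentrating hormone, was at 11.72 to 11.80 log2 in the tumour-bearing arrays and 11.40 log2 in the control. Pomc, pro-opiomelanocortin, was at 6.73 to 6.99 log2 in the tumour-bearing arrays and 7.19 log2 in the control. Over 8 of 9 listed markers of these neurons the summed level was 10126 to 10766 linear units in tumour-bearing arrays, against 8427 in the control, and Oxt, oxytocin, differed most at 0.74 ± 0.11 log2. Of the 8, 5 lay above control in all 3 arrays and 1, Pomc, below it, at -0.29 ± 0.15 log2, and the others overlapped it. The 6 neuronal markers summed to 24698 to 25618 linear units at 0.5M, 1M and 2M, against 25364 in the control, and the 6 astrocyte markers to 9349 to 9686, against 9777. The 5 measured anterior pituitary markers summed to 2589 units at 0.5M and to 614 to 733 in the other tumour-bearing arrays, against 633 in the control. In log2 terms 4 of these 5 lay above control in all 3 arrays, with Gh, growth hormone, at 4.68, 0.78 and 0.72 log2, and Cga, the shared hormone alpha chain, lay below it at -0.05, -0.01 and -0.50 log2. The 6 microglial markers summed to 1008 to 1317 units in tumour-bearing arrays, against 1325 in the control, and 5 oligodendrocyte markers to 8277 to 10278, against 9325. Of these 5, 1 lay above control in all 3 arrays, Mobp at 0.42 ± 0.14 log2, 1 lay below it and 3 overlapped it. Of the 6 astrocyte markers, 1 lay above control in all 3 arrays, 2 lay below it, with Aqp4 at -0.49 ± 0.16 log2, and 3 overlapped it. Over all genes, 33.2% lay above control in all 3 arrays and 22.5% below. The 2 measured red blood cell markers summed to 317 to 337 units, against 205. The part of these cell type differences in the values below was not tested. In bulk tissue, fewer cells of a type and less RNA per cell cannot be told apart.

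No subunit gene passed limma in either test, and the members lay on both sides of the control. Of 83 members, 49 had a mean over the tumour-bearing arrays below the control and 34 above it. Their median was -0.04 log2, beside 0.03 over all 19938 genes and 0.02 over the 11963 genes tested. It was -0.02 without the 2M array, -0.07 without the 1M array and -0.07 with array medians subtracted. Values are log2 expression from the deposited table, and a difference is a tumour-bearing array, or the mean of the 3 of them, minus control. An SD beside a mean difference is that over the 3 tumour-bearing arrays, and it holds no error of the control array.

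The sizes ran from -0.66 log2 for Uqcrb, a small subunit of complex III, to 0.36 log2 for Atp5j2, a small membrane subunit of ATP synthase. The quartiles of the mean difference were -0.15 and 0.07 log2 over the members, beside -0.08 and 0.14 over all genes. By limma across the 11963 genes tested, of which 78 were members, 0 members were called higher and 0 lower in tumour-bearing against control hypothalamus, where 0.0502% and 0.0% of all tested genes were called. The lowest adjusted p of a member was 0.362, that of Uqcrb. At an unadjusted p under 0.05, 7 members were lower and 2 higher, 8.97% and 2.56% of those tested, beside 4.61% and 6.19% of all genes. The spread in this fit came from the 3 tumour-bearing arrays alone, with 2 residual degrees of freedom, and the control was taken to share it.

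The control array lay above all 3 tumour-bearing arrays for 32 of 83 members, or 38.6%, and below all 3 for 19, or 22.9%. Over all genes these shares were 22.5% and 33.2%, and over the genes tested 27.3% and 33.4%. The share with the control on top increased with expression level, and in the top quartile of tested genes it was 32.8%, where 23 of 49 members had it. Without the 2M array, 29 members, or 34.9%, lay above the control in both others, beside 38.6% of all genes, and 32 lay below it, beside 26.5%. The 3 differences share the control array, so a deviation of that array alone moves all of them.

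**Figure D1:**
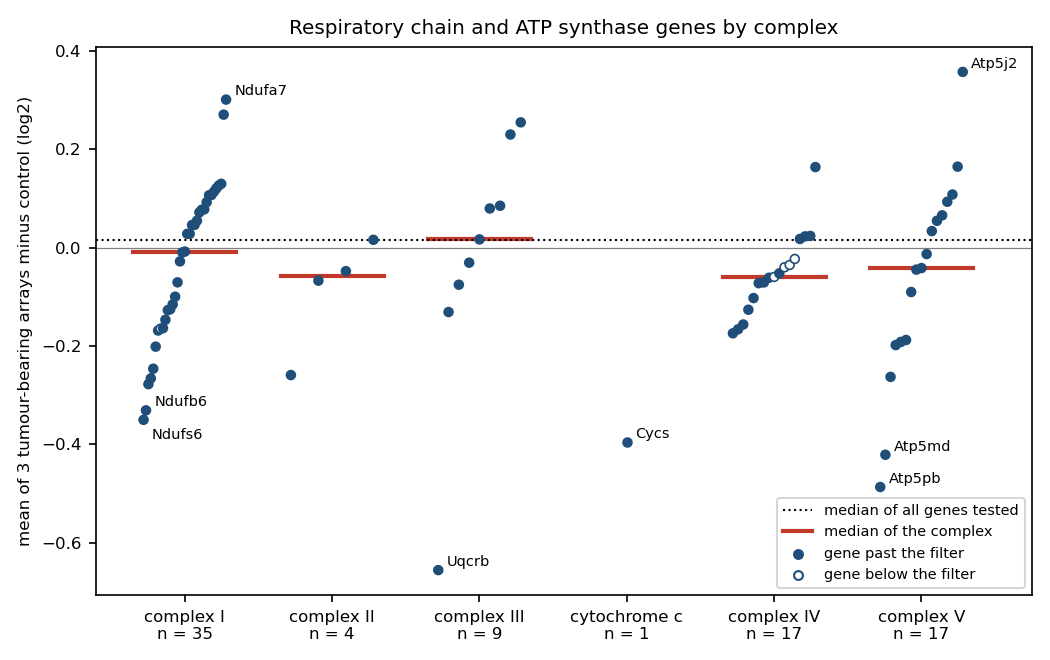
Mean difference of the 3 tumour-bearing arrays from control (y axis, log2) for each of the 83 subunit genes, grouped by complex along the x axis and sorted within it. Filled points are genes past the filter on dim genes, open points are below it, red bars are complex medians and the dotted line is the median of all genes tested. Points lie between -0.66 and 0.36 log2, with complex IV the least spread and Uqcrb, Atp5pb, Atp5md and Cycs lowest.

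The complexes had medians within 0.1 log2 of control. The median member stood at -0.01 log2 in complex I, -0.06 in complex II, 0.02 in complex III, -0.06 in complex IV and -0.04 in complex V. Complex I was taken by symbol and so includes Ndufa4 at -0.10 log2 and Ndufa4l2 at -0.16, which are not counted in complex IV. Both lie below the complex I median, which would be higher without them. The SD over members was 0.27 log2 in complex III, 0.21 in complex V, 0.16 in complex I, 0.12 in complex II and 0.08 in complex IV, beside 0.18 over all genes tested. The spread of complex III rested on Uqcrb, since its other 8 members had an SD of 0.14 log2. Subtracting array medians turned the complex III median to -0.02, and the complex I median was 0.01 past the filter on dim genes, 0.03 past a stricter one and 0.01 without the 2M array. Leaving out the 2M array also turned the complex V median to 0.01 and brought that of complex II to -0.01. With 1 array per group, these differences between complexes have no replicate check and were not tested.

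Taking the arrays in turn, the 83 members had a median of -0.02 log2 at 0.5M, 0.00 at 1M and -0.09 at 2M, beside -0.01, 0.07 and 0.03 over all genes. Over the genes tested, which leaves out dim genes, the medians were 0.01, 0.04 and 0.01. The sign at 1M depended on scaling, since the member median was -0.03 with cyclic loess and -0.07 with array medians subtracted. At 2M, the single animal, 4 of 4 complex II, 5 of 9 complex III, 14 of 17 complex IV, 12 of 17 complex V and 20 of 35 complex I members lay below control, beside 43.7% of all genes. At 1M the counts below control were 1, 4, 9, 9 and 16 in the same order, beside 36.0%, and at 0.5M they were 4, 4, 12, 8 and 17, beside 51.7%. The complex IV counts include 4 dim isoform genes under the filter. All 4 lay below control at 0.5M and above it at 1M, and all but Cox6b2 lay below it at 2M. Only 1 of the 83 members, Ndufs7, had its highest value in the 2M array, where 20.2% of all genes did. Each member's lowest value fell in the 2M array for 28 members and in the 1M array for 23, beside 19.7% and 18.6% of all genes.

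Comparisons between tumour-bearing arrays do not use the control. The member median was -0.01 log2 for 1M minus 0.5M, -0.06 for 2M minus 0.5M and -0.07 for 2M minus 1M, beside 0.07, 0.03 and -0.04 over all genes. Over the genes tested, which leaves out dim genes, these medians were 0.03, -0.003 and -0.02. The largest of the complex medians in size were those of complex II and complex V, at -0.13 for 2M minus 1M and -0.11 for 2M minus 0.5M.

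**Figure D2:**
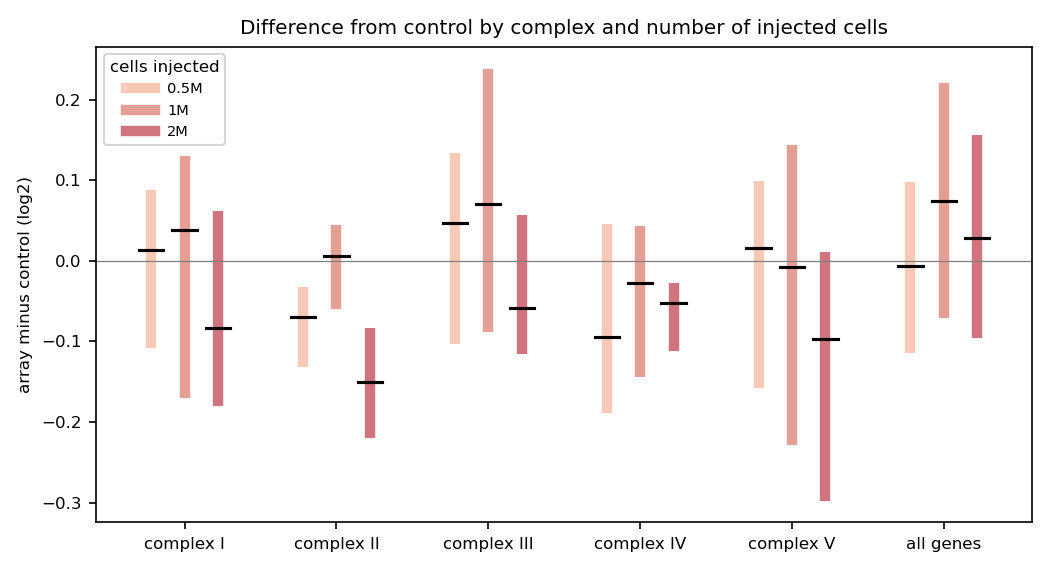
Difference from control (y axis, log2) of the members of each of the 5 complexes and of all genes (x axis) at 0.5M, 1M and 2M. Bars span the quartiles over genes and black marks are medians, which run from -0.15 for complex II at 2M to 0.07 for complex III and all genes at 1M.

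At 0.5 log2 or more, a 1.41-fold difference, 1, 5 and 2 members lay below control at 0.5M, 1M and 2M. These were 1.2%, 6.02% and 2.41% of the members, beside 0.697%, 1.59% and 1.23% of all genes. Above control by that size there were 0, 2 and 0 members, beside 0.692%, 3.21% and 1.78% of all genes. Among the genes tested, which leaves out dim genes, the shares were 0.293%, 2.14% and 1.25% below and 0.56%, 1.63% and 1.24% above, so the 2 members above control at 1M, 2.41%, were under the share of all genes and over that of tested genes. The 5 at 1M were Uqcrb, Atp5md, Atp5pb, Ndufb6 and Cycs, and the 2 above were Ndufa7 and Atp5j2. With probe sets averaged, the count below control at 1M was 3 and at 2M 1.

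**Figure D3:**
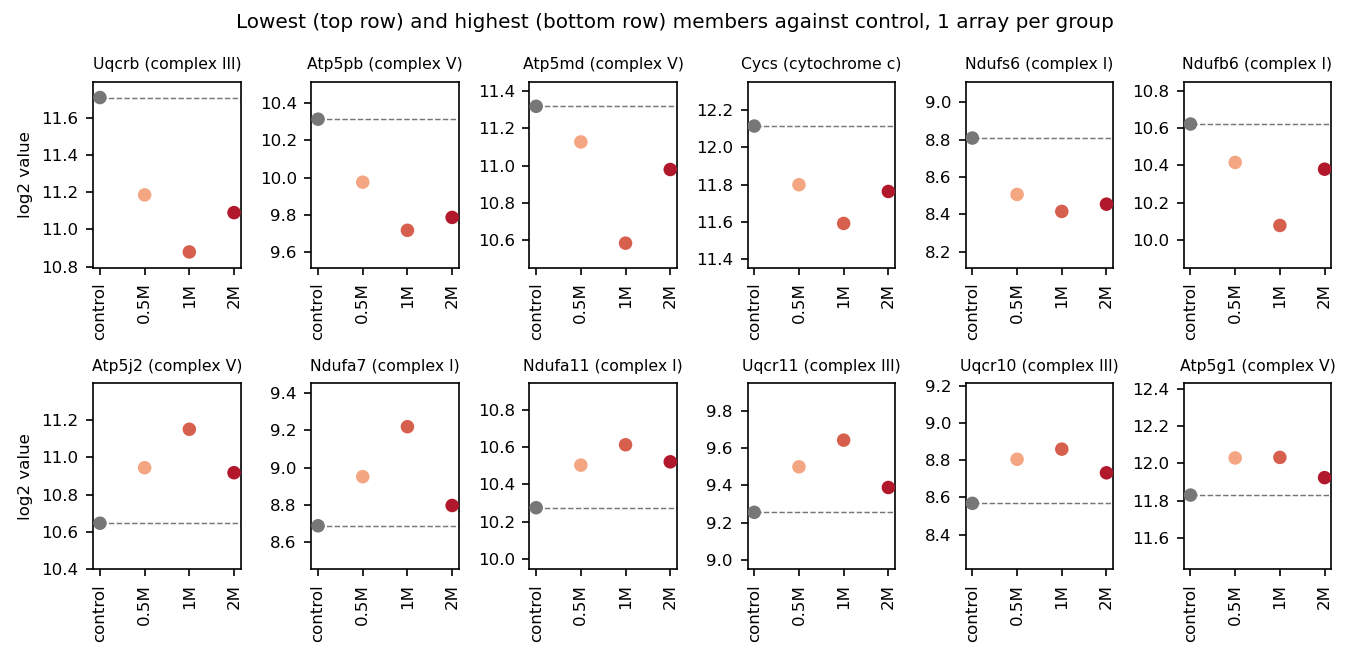
Log2 value in the control, 0.5M, 1M and 2M arrays (x axis) for the 6 members lowest and the 6 highest against control by mean difference, each panel spanning 1 log2 unit and 1 array per point. The dashed line marks the control value. In all 12 panels the 3 tumour-bearing arrays lie on the same side of the control. The 1M array is the farthest from the control in each. The genes were picked by the mean of these same 3 differences, which favours genes whose arrays share a side. Across all probe sets the 1M array also correlated least with the control, at 0.984, beside 0.992 for 0.5M and 0.99 for 2M. It held the highest value for 42.6% of all genes and the lowest for 18.6%.

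Complex I, the NADH dehydrogenase, has a matrix arm that oxidises NADH and a membrane arm that pumps protons. Ndufs6, an accessory subunit of the matrix arm needed for its assembly, had 8.81 log2 in the control array and 8.51, 8.42 and 8.45 log2 at 0.5M, 1M and 2M. The 3 tumour-bearing values lay close together and below the control, with a mean difference of -0.35 ± 0.05 log2 (limma adjusted p = 0.375). Ndufs4, an accessory subunit whose loss causes a Leigh-like encephalopathy in mice, had 10.82 log2 in the control and 10.87, 10.42 and 10.34 log2 at the 3 cell numbers. The 0.5M array was 0.05 log2 above the control and the other arrays were lower. Its slope of -0.28 ± 0.08 log2 per 1000000 cells (SE) had the smallest unadjusted p of a member in the limma trend, at 0.0101, and an adjusted p of 0.682.

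In the membrane arm, Ndufb6 had 10.62 log2 in the control and 10.41, 10.08 and 10.38 log2 at the 3 cell numbers. The 1M array stood apart below the rest. Ndufa3 had 10.40 log2 in the control and 10.17, 10.10 and 10.13 log2 in the tumour-bearing arrays, a mean difference of -0.27 ± 0.04 log2. Both encode accessory subunits, and neither passed limma (adjusted p = 0.476 and 0.399). Ndufa11, a membrane-arm subunit that contacts complex III in supercomplexes, went the other way, with 10.27 log2 in the control and 10.50, 10.61 and 10.52 log2 at the 3 cell numbers. Ndufa7, in the matrix arm, had 8.69 log2 in the control and 8.95, 9.22 and 8.80 log2. Its 1M array was highest and its 2M array was within 0.11 log2 of the control.

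The matrix arm, with 15 measured members, had a median of -0.01 log2, 5 members (33.3%) below control in all 3 arrays and 3 (20.0%) above. The membrane arm, with 18, had a median of 0.04 log2, with 6 (33.3%) below and 8 (44.4%) above. Over all genes these shares were 22.5% below and 33.2% above, and over the genes tested 27.3% and 33.4%. The core subunits of the matrix arm that carry flavin or iron-sulphur clusters lay close to control, with mean differences of -0.01 log2 for Ndufv1, 0.03 for Ndufv2, -0.13 for Ndufs1, -0.13 for Ndufs3, 0.13 for Ndufs7 and 0.13 for Ndufs8 (Ndufs3 is a core subunit without a cluster). The other complex I members not named so far had mean differences between -0.25 log2, for Ndufa1, and 0.12 log2, for Ndufs5.

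Complex II, succinate dehydrogenase, links the citric acid cycle to the chain. Sdha, its flavoprotein, had 11.35 log2 in the control and 11.13, 11.10 and 11.05 log2 at 0.5M, 1M and 2M, in the order of cell number and all below control. Its mean difference was -0.26 ± 0.04 log2, a tumour-to-control ratio of 0.836 (limma adjusted p = 0.413), and its slope of -0.13 ± 0.07 log2 per 1000000 cells (SE) had a limma adjusted p of 0.779. Sdhb, the iron-sulphur subunit, had 10.05 log2 in the control and 10.03, 10.06 and 9.86 log2. The membrane anchors Sdhc and Sdhd differed from control by -0.05 ± 0.06 and 0.02 ± 0.13 log2. The catalytic flavoprotein thus stood apart from the other 3 genes, whose arrays overlapped the control.

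Complex III, the cytochrome bc1 complex, held the member farthest from control. Uqcrb, a small subunit near the ubiquinone site, had 11.71 log2 in the control and 11.18, 10.88 and 11.09 log2 at 0.5M, 1M and 2M. All 3 tumour-bearing arrays were at least 0.52 log2 below the control, and their own range was 0.31 log2. The mean difference was -0.66 ± 0.16 log2, a ratio of 0.635, with an SE of 0.13 log2 by limma, an unadjusted p of 0.00219 and an adjusted p of 0.362. The small subunits Uqcr10 and Uqcr11 lay on the other side of the control. Uqcr11 had 9.26 log2 in the control and 9.50, 9.64 and 9.39 log2 in the tumour-bearing arrays. Uqcr10 had 8.57 log2 in the control and 8.80, 8.86 and 8.73 log2. Neither overlapped the control. Their mean differences were 0.25 ± 0.13 and 0.23 ± 0.06 log2 (limma adjusted p = 0.484 and 0.460).

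The nuclear-encoded subunits of complex III that carry redox centres were near control, and CYTB, encoded in mitochondrial DNA, was not measured here. Cyc1, cytochrome c1, differed by -0.08 ± 0.04 log2 and Uqcrfs1, the Rieske iron-sulphur protein, by -0.03 ± 0.09. The large core proteins Uqcrc1 and Uqcrc2 differed by 0.08 ± 0.05 and 0.02 ± 0.04 log2, and the small subunits Uqcrh and Uqcrq by 0.09 ± 0.18 and -0.13 ± 0.04.

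Cytochrome c, encoded by Cycs, carries electrons between complexes III and IV and also triggers apoptosis when released to the cytosol. It had 12.11 log2 in the control and 11.80, 11.59 and 11.76 log2 at 0.5M, 1M and 2M. The 3 tumour-bearing arrays were all lower, with the 1M array lowest, and limma gave an unadjusted p of 0.0114 and an adjusted p of 0.375. Of its other probe sets, one differed by -0.37 log2 and one, at 5.66 log2 in the control, by 0.39.

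Complex IV, cytochrome c oxidase, was the tightest group. All 17 members had mean differences between -0.17 and 0.16 log2, with 13 below control and 4 above. The 13 below include Cox6b2, Cox7b2, Cox8b and Cox8c, the 4 members under the filter on dim genes, which were not tested. Cox8a, the widely expressed isoform of its smallest subunit, was the 1 member above control in all 3 arrays, with 11.53 log2 in the control and 11.65, 11.76 and 11.67 log2 in the tumour-bearing arrays. That is 5.88% of the 17, beside 33.2% of all genes. There were 6 members (35.3%) below control in all 3, beside 22.5% of all genes. Of these 6, Cox6b1, on the intermembrane space side of the enzyme, had 10.62 log2 in the control and 10.48, 10.57 and 10.34 log2. Cox6c and Cox7a2, small subunits of the enzyme, differed by -0.13 ± 0.05 and -0.17 ± 0.14 log2. None of the 13 tested members had an unadjusted p under 0.05 in either limma test.

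Several complex IV subunits have isoforms with their own tissue range. The main isoforms Cox4i1, Cox6a1, Cox7a2 and Cox7b differed from control by -0.10 ± 0.07, 0.02 ± 0.10, -0.17 ± 0.14 and -0.05 ± 0.16 log2. Of the isoforms known from muscle or testis, Cox6b2, Cox7b2, Cox8b and Cox8c fell below the filter value of 6.59 log2. Cox7a1, the muscle isoform, was just inside it at a mean of 6.594 log2, and Cox6b2 just outside at 6.469. Cox4i2, the hypoxia-regulated isoform, had 6.93 log2 in the control and 6.60, 6.93 and 6.74 log2 at the 3 cell numbers, with the 1M array level with the control. Cox6a2 differed by 0.02 ± 0.03 log2, Cox7a1 by -0.06 ± 0.12, Cox6b2 by -0.04 ± 0.14, Cox7b2 by -0.04 ± 0.22, Cox8b by -0.06 ± 0.12 and Cox8c by -0.02 ± 0.10. Ndufa4, named for complex I but since placed in complex IV, differed by -0.10 ± 0.01 log2, and its hypoxia-induced relative Ndufa4l2, below the filter, by -0.16 ± 0.19. Cox7a2l, which helps to join complexes III and IV, differed by 0.02 ± 0.15.

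Complex V has a catalytic F1 head in the matrix, a ring of c subunits in the membrane, and a peripheral stalk that holds them together. Atp5pb, subunit b of the peripheral stalk, had 10.31 log2 in the control and 9.98, 9.72 and 9.79 log2 at 0.5M, 1M and 2M. The tumour-bearing arrays were all lower, by -0.49 ± 0.13 log2 on average, a ratio of 0.714 (limma adjusted p = 0.375). Atp5md, a small membrane subunit, had 11.32 log2 in the control and 11.13, 10.58 and 10.98 log2. Its 1M array was -0.73 log2 from control and its 0.5M array -0.19, the widest split among arrays for a complex V gene. Atp5b, the catalytic beta subunit, had 12.61 log2 in the control and 12.40, 12.28 and 12.37 log2, so that all 3 tumour-bearing arrays were lower by 0.21 log2 or more. Atp5h, subunit d of the same stalk as Atp5pb, differed by -0.20 ± 0.04 log2. None of these 4 passed limma.

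Atp5j2, subunit f of the membrane part, was the highest member. It had 10.65 log2 in the control and 10.94, 11.15 and 10.92 log2 at 0.5M, 1M and 2M, a ratio of 1.28 (limma unadjusted p = 0.0228 and adjusted p = 0.397). Atp5g1, Atp5g2 and Atp5g3 encode the same mature c subunit from separate genes. Atp5g1 had 11.83 log2 in the control and 12.03, 12.03 and 11.92 log2, above control in all 3 arrays. Atp5g3 had 11.13 log2 in the control and 11.08, 10.90 and 10.83 log2, below control in all 3 and in the order of cell number. Atp5g2 stood between them at 0.05 ± 0.05 log2. In the limma trend Atp5g3 had a slope of -0.16 ± 0.06 log2 per 1000000 cells (SE, adjusted p = 0.761).

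The 5 genes of the F1 head had a median of -0.04 log2 and the 12 of the membrane part and stalks -0.03. Within the head, Atp5a1, the alpha subunit, differed by -0.09 ± 0.02 log2, and Atp5d and Atp5e, the delta and epsilon subunits of the central stalk, by 0.11 ± 0.08 and 0.09 ± 0.15.

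In the trend with cell number, 0 members and 0.0% of all tested genes passed limma in either direction. At an unadjusted p under 0.05, 4 members had a negative slope and 0 a positive one, beside 3.18% and 3.34% of all genes. The 4 were Ndufs4, Ndufa1 (a small membrane-arm subunit), Atp5pb and Atp5g3. The number of members under that p was 16 without the 2M array (20.5%, beside 18.0% of all tested genes), 8 without the 1M array (10.3%, beside 12.6%) and 2 without the control (2.56%, beside 1.78%). The 2M array, from 1 animal, lies at the far end of the fit, and a step between the control and the other arrays also gives a slope.

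Of the 83 members, 17 were measured by several probe sets, 43 in all. For 15 of the 17, all probe sets differed from control in the same direction. The exceptions were Cycs, given above, and Atp5l, whose 6 probe sets ranged from -0.09 to 0.09 log2. The 3 probe sets of Uqcrb differed by -0.66, -0.67 and -0.59 log2, and the 3 of Atp5md by -0.42, -0.37 and -0.33. The pair of Atp5pb gave -0.49 and -0.24, and the 3 of Atp5h gave -0.20, -0.45 and -0.29. Many of these genes have processed pseudogene copies, and which probe set lies at the gene itself is not given in the sources used here, so probe sets of a gene may share signal and are not replicates.

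**Figure D4:**
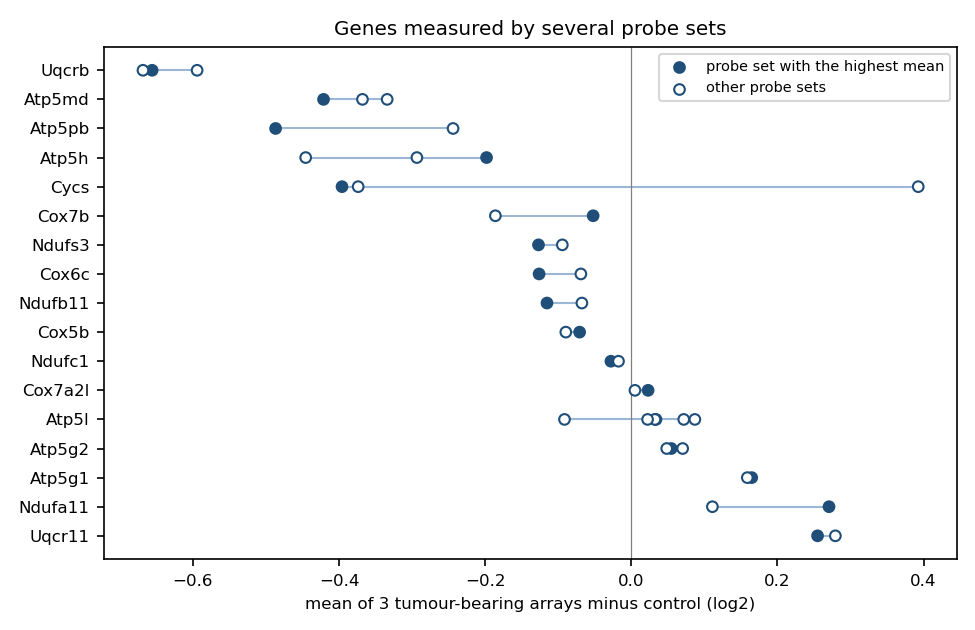
Mean difference of the 3 tumour-bearing arrays from control (x axis, log2) for each probe set of the 17 subunit genes (rows) measured by several. Filled points are the probe sets that stand for the gene and open points the others; Uqcrb, Atp5md, Atp5pb and Atp5h have all their points below 0, and Cycs has points on both sides.

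Promoter sequences of RefSeq (assembly GRCm38.p6, 250 bases before to 50 after the annotated start) were matched by gene ID for 67 of the 83 members. Many nuclear genes of oxidative phosphorylation are known targets of NRF1, of the ETS family factor GABP and of YY1. Short core motifs were searched on both strands of the first listed start of each gene. GCGCANGCG, from the NRF1 site, was in 19 of 67 member promoters (28.4%) and in 6.47% of all 27025. CCGGAAG, the ETS core, was in 16 (23.9%), beside 9.12%, and AAGATGG, from the YY1 site, in 9 (13.4%), beside 6.48%. The TATA box core TATAAA was in 8 (11.9%), beside 14.2%. The median GC content was 57.3% in member promoters and 52.7% in all.

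These 4 promoters are shown because they belong to members on opposite sides of the control that hold the same core. Cycs, below control, and Uqcr11, above it, each hold the NRF1 core, and Atp5pb, below control, and Atp5j2, above it, each hold the YY1 core. Capitals mark the motifs, which do not overlap here.
Cycs, chr6:50566520-50566819, minus strand: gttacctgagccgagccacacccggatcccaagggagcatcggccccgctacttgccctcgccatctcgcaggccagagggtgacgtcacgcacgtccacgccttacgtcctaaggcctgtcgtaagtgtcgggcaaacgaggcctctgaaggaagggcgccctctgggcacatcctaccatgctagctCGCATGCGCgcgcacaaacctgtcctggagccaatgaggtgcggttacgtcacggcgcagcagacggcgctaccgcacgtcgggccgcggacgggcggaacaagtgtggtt
Uqcr11, chr10:80406772-80407071, minus strand: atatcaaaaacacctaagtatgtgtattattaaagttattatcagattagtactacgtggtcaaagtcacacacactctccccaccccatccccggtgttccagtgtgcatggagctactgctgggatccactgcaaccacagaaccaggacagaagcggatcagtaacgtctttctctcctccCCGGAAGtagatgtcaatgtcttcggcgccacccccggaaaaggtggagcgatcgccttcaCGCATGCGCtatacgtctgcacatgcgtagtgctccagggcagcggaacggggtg
Atp5pb, chr3:105959214-105959513, minus strand: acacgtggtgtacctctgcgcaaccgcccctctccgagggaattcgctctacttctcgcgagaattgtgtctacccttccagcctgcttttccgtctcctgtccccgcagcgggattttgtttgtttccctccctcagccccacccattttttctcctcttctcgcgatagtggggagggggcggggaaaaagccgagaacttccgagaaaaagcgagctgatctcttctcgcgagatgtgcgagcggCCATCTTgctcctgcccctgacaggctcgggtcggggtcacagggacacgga
Atp5j2, chr5:145191492-145191791, minus strand: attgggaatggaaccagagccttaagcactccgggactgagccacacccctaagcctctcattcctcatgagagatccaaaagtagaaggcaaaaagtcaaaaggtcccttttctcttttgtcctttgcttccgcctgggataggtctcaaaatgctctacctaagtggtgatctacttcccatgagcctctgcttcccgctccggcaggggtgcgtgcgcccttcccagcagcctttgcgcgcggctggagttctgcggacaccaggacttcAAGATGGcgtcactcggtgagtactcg
In Cycs the NRF1 core begins 61 bases before the start. In Uqcr11 it begins 5 bases before the start, with an ETS core 66 bases before it. The YY1 core begins 2 bases before the start in Atp5pb and 23 bases after it in Atp5j2.

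Members with the NRF1 core had a median mean difference of 0.02 log2, and the 48 without it -0.03. The medians were 0.02 log2 with the ETS core and -0.03 without. They were -0.20 log2 for the 9 members with the YY1 core and -0.01 for the 58 without, where the 9 ran from -0.49 for Atp5pb to 0.36 for Atp5j2. A match is a description of the letters in these windows, and these differences were not tested.

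Factors that drive mitochondrial gene expression showed no common direction. The 15 regulators had a median of -0.03 log2, and 0 passed limma. In all 3 arrays, 7 (46.7%) lay below control and 5 (33.3%) above, beside 22.5% and 33.2% of all genes. Polrmt, the mitochondrial RNA polymerase, had 8.37 log2 in the control and 8.50, 8.93 and 8.62 log2 at 0.5M, 1M and 2M. Tfam, which packages and transcribes mitochondrial DNA, had 6.96 log2 in the control and 6.89, 6.56 and 6.55 log2. These are the largest differences in size of the list, and they have opposite signs. Ppargc1a, the coactivator of mitochondrial biogenesis, and the activators Nrf1 and Gabpa differed by 0.05 ± 0.10, 0.19 ± 0.10 and -0.16 ± 0.14 log2; these 3 were chosen after their values were seen.

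Only 2 of the 13 subunits encoded in mitochondrial DNA were measured here, both below control. COX2, of complex IV, had 13.38 log2 in the control and 13.09, 12.76 and 13.02 log2 in the tumour-bearing arrays, which did not overlap it. ND3, of complex I, had 12.58 log2 in the control and 12.44, 11.89 and 12.37 log2. The 1M array was lowest for both, as it was for Uqcrb, Cycs, Atp5md and Ndufb6. Neither passed limma (adjusted p = 0.397 and 0.572).

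Assembly factors, which build the complexes without staying in them, had small medians, with single genes farther out. Of the 13 complex I factors, 12 had a mean below control, as did 8398 of all 19938 genes. In all 3 arrays, 6 (46.2%) lay below control and 1 (7.69%) above, beside 22.5% and 33.2% of all genes. The median was -0.08 log2, led by Timmdc1 at -0.18 ± 0.11 and Ndufaf2 at -0.16 ± 0.06. The 30 measured factors of complexes II to V had a median of 0.01 log2, with 11 (36.7%) below control in all 3 arrays and 13 (43.3%) above. Uqcc2, an assembly factor of complex III, had 9.57 log2 in the control and 10.09, 10.14 and 10.16 log2, at least 0.5 log2 higher in each tumour-bearing array (limma unadjusted p = 0.0007 and adjusted p = 0.313). Cox17, the copper chaperone of complex IV, had 6.51 log2 in the control and 5.91, 5.96 and 5.95 log2, below the filter and not tested. Both genes had 3 tumour-bearing values within 0.1 log2 of each other and away from the control.

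The other lists of mitochondrial and energy genes held 0 genes that passed limma in either test. The 17 genes of pyruvate oxidation and the citric acid cycle had a median of -0.03 log2, with Pdhb, of pyruvate dehydrogenase, at -0.37 ± 0.13 and Sucla2, of succinyl-CoA synthetase, at -0.31 ± 0.09. In this list 7 genes (41.2%) lay below control in all 3 arrays and 4 (23.5%) above, beside 22.5% and 33.2% of all genes. At an unadjusted limma p under 0.05, 2 were lower and 2 higher (11.8% each), beside 4.61% and 6.19% of all genes tested. The 12 membrane transport genes had a median of -0.11, with the channel gene Vdac3 at -0.46 ± 0.17 and the aspartate-glutamate carrier gene Slc25a13 at 0.37 ± 0.06. Protein import genes, 20 in number, had a median of 0.03, with the chaperonin gene Hspe1 at -0.57 ± 0.25 and the translocase gene Timm17b at 0.38 ± 0.08. The 13 glycolysis genes had a median of -0.01, with Hk1, hexokinase, at -0.37 ± 0.09 and Pgk1 at -0.32 ± 0.14, and the 8 antioxidant genes one of -0.10, with Prdx3 at -0.24 ± 0.13 and Txn2 at -0.20 ± 0.01.

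**Figure D5:**
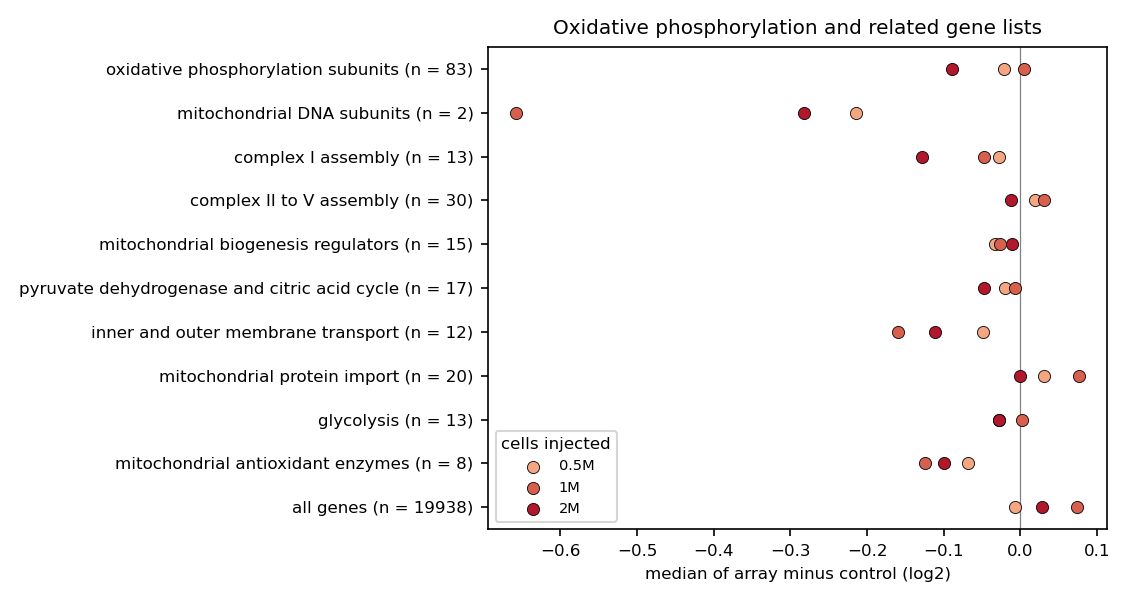
Median difference from control (x axis, log2) at 0.5M, 1M and 2M for the subunit genes, for 9 related lists and for all genes (rows, n genes measured). Medians lie between -0.16 and 0.08 log2 except for the 2 mitochondrial DNA genes, which reach -0.66 at 1M.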

How the data were processed

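Hypothalamic RNA of 4 groups was measured on 1 whole-transcript array each. The deposited values are log2 expression per probe set, which the authors made with RMA, as the submitters' processing notes name it. The version, software, scan dates and slides were not given in the sources used. RMA aligns array distributions, so a change common to all transcripts is removed. The table held 35556 probe sets, 0 missing values and 0 columns without a sample; the platform annotation gave 1 symbol to 21789, several to 1621 and left 12146 unnamed here. Gene values, differences and lists were computed here without a filter. Two-sided limma 3.58.1 tests (R 4.3.3, lmFit and eBayes, Benjamini-Hochberg over all genes, threshold 0.05) covered 11963 genes with a mean of at least 6.59 log2, the 40th percentile of all. They were tested on simulated data with changes of 2 log2, larger than any member difference here, which does not check smaller ones. The number of arrays limits the precision. Python 3.11.15, numpy 2.4.6, pandas 2.3.3, scipy 1.17.1 and matplotlib 3.10.9 did the rest. The members and lists were chosen with earlier results of these data known. Genes named singly were the 4 lowest and 2 highest of each complex, those 0.5 log2 from control in any array, complex II, Cycs, Cyc1 and isoform genes, and 2 per related list; other members are named in ranges or as core subunits. Alternatives were another probe set rule, filter, normalization, variance model and coding of cell number, and leaving out each array.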

Additional observations from a re-analysis of the deposited data

How the results depend on the processing

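No paired analysis was possible because each group was 1 array. The count of members passing limma was 0 in both tests under every alternative run. The count over all genes in the tumour comparison was 1 without a filter, 2 with the 60th percentile filter and 3 to 6 with a tumour-bearing array left out, the lowest without the 1M array. In the trend it was 38, 58, 0 and 3 without the 0.5M, 1M, 2M and control arrays. With 0.3 log2 in place of 0.5, the members below control numbered 6, 10 and 10 at 0.5M, 1M and 2M, and those above at 1M numbered 4. No share of all genes at 0.3 log2 was set beside these counts, so they have no background. With probe sets averaged, those 0.5 log2 below numbered 3 at 1M and 1 at 2M. With array medians subtracted, the median at 1M was -0.0675, that of complex IV was -0.0942, and 0 members lay 0.5 log2 above control at 1M. The count above control in both remaining tumour-bearing arrays was 23 to 29 with an array left out, highest without the 2M array. Without the 0.5M, 1M and 2M arrays these were 27.7%, 27.7% and 34.9% of members, beside 47.3%, 38.1% and 38.6% of all genes. Members below control in both numbered 36, 42 and 32 in the same order. These were 43.4%, 50.6% and 38.6% of members, beside 27.3%, 33.6% and 26.5% of all genes. Among 42 members named singly, 316 of 322 alternative values lay within 1 SD of the reported value, and the 16 that changed sign all belonged to values under 0.1 log2. Most of these values could not have moved by 1 SD, so the count is no measure of stability. Filters leave a gene's value unchanged, and probe set averaging changes only genes with several probe sets. Leaving out 1 of 3 arrays shifts their mean by less than their SD. The filter on members at the 40th percentile and the spread of complex III without Uqcrb were chosen after seeing the data. The lack of replicate arrays limits every value.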
